A study of Mus musculus with 12 samples.

Results

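The translation initiation factors examined here are the protein-coding mouse genes whose GRCm38 symbol begins with Eif and a digit, with the Eif2ak kinases and Eif2s3y left out, and with a total of 30 or more reads in the 12 samples. This gave 48 genes of the 15138 genes that reached that number of reads, out of 56691 mouse genes in the count table. Before the read filter there were 50 candidates. Eif4e1b and Eif4ebp3 were left out by it, with 0 reads in every sample, which allows a level of up to 0.0129 CPM over the 12 samples. By complex, the 48 genes comprised 5 of the eIF1 group, 3 eIF2 subunits, 5 eIF2B subunits, 14 eIF3 genes, 11 eIF4 genes, 3 eIF4E-binding proteins, 4 genes named eIF5, and 1 gene each for eIF2A, eIF2D and eIF6.

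The study asked how Lag3 and the PD-1 pathway, both inhibitory receptor systems, control the reactivation of CD4+ T cells in vivo. Tg4 Nr4a3-Tocky Il10-GFP mice carry T cells specific for a myelin basic protein peptide, a Timer protein that reports Nr4a3 transcription after T cell receptor signalling, and a GFP reporter of Il10. All 4 groups carried these alleles, came from mice of both sexes that the methods give as typically aged 6–8 weeks, and received 4 mg/kg [4Y]-MBP peptide subcutaneously, an antibody 24 h later, 0.4 mg/kg peptide a further 30 min later, and removal of the spleen 12 h after that. The isotype group received pooled rat IgG1 and rat IgG2a, the anti-Lag3 group clone C9B7W, the anti-PD-L1 group clone MIH5, and the co-blockade (CB) group both blocking antibodies at equal parts, with a dose of 0.5 mg given for the antibodies. Each group had 3 mice, and the sample of each mouse was the sorted Nr4a3-Blue+Red+ fraction of CD4+ spleen cells, called responders. The reporter defined the sorted cells in every group, so cells that had not signalled to Nr4a3 were not sampled. The samples were sorted in batches of 4 that held 1 mouse per condition, each marked with CD4 antibody of a different colour, and the labels do not say which sample number belonged to which batch.

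Initiation begins when eIF2, bound to GTP, carries the initiator transfer RNA to the small ribosomal subunit, where eIF1, eIF1A, eIF3 and eIF5 assemble with it. The eIF4F complex, made of the cap-binding eIF4E, the scaffold eIF4G and the helicase eIF4A, brings the messenger RNA, and eIF5B joins the large subunit once the start codon is found. After each round eIF2B reloads eIF2 with GTP, which is the step that eIF2 kinases block under stress. Resting T cells translate little, and activation is known to raise both the amount and the activity of this machinery. The values below are transcript levels and say nothing of phosphorylation or protein.

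Reads on mouse genes ranged from 16449370 to 22151025 per sample, with a median of 19176439. The CD4 T cell markers Cd3d, Cd3e, Cd3g, Cd4, Lck and Trbc2 were read in every sample, and their sum was 2947–3131 CPM in isotype, 2886–2925 in anti-Lag3, 2836–3121 in anti-PD-L1 and 2553–2661 in CB. Of the markers of other cells, Cd14 was at 0 in all samples, the 4 myeloid markers summed to 4.66–9.61 CPM in isotype, 4.71–8.51 in anti-Lag3, 10.6–14.3 in anti-PD-L1 and 4.30–7.52 in CB, and the 3 platelet markers to at most 3.31 CPM. The 4 haemoglobin transcripts moved with the groups, at 241–442 CPM in isotype, 211–284 in anti-Lag3, 169–215 in anti-PD-L1 and 149–198 in CB. The 2 CD8 markers stood at 40.9–45.3 CPM in isotype, 29.2–46.4 in anti-Lag3, 24.6–30.5 in anti-PD-L1 and 25.1–33.2 in CB, and the 3 NK markers at 18.4–34.2, 15.4–25.6, 13.0–18.1 and 7.50–14.7 CPM in that order. These sums were mostly Cd8b1 and Gzma: Cd8a was at most 3.24 CPM, Ncr1 at most 1.78 CPM and Klrb1c at 0–0.477 CPM in isotype and 0.962–1.71 CPM in CB. Their part in the results below was not tested. In 5 samples (number 1 of each group and isotype 2) Y-linked transcripts summed to 97.4–143 CPM and Xist was at 0–11.3 CPM, whereas in the other 7 samples the Y-linked sum was at most 0.941 CPM and Xist was at 237–491 CPM. The isotype group thus held 2 of the 5 and each other group 1.

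Promoter sequence was at hand for 38 of the 48 genes (RefSeq, GRCm38.p6, 250 bases before to 50 after each annotated start). The 3 short words below were searched on both strands. The E-box CACGTG, a word that reads the same on both strands and is known as the site of Myc-family factors, lay in the promoters of 10 of 38 members (26.3%), against 11.8% of 9270 protein-coding genes tested and 8.09% of all genes in the table. The ETS-type word CCGGAAGT lay in 7 of 38 (18.4%, against 9.67% of the tested coding genes), and the word AAGATGGC, known from YY1 sites, in 4 of 38 (10.5%, against 5.56%). The E-boxes that lie before the start of the eIF4F subunits are shown (a further one in Eif4g1 begins 16 bases after its start) because Eif4e is a well-known Myc target, along with the ETS-type window of Eif3d, a gene called higher in CB. Capitals mark the word, and each line runs 5′ to 3′ on the strand of the gene.
Eif4e, distal, chr3:138527028-138527057 (+): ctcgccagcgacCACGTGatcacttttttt
Eif4e, proximal, chr3:138527192-138527221 (+): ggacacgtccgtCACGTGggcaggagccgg
Eif4a1, chr11:69672595-69672624 (-): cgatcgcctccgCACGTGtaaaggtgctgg
Eif4g1, chr16:20672661-20672690 (+): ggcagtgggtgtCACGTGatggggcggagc
Eif3d, chr15:77970877-77970906 (-): agctgtgacacACTTCCGGttgtgtctcac

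The words lie 228 and 64 bases before the start in Eif4e, 189 before it in Eif4a1, 54 before it in Eif4g1 and 71 before it in Eif3d, counted to the first base shown in capitals. In the GENCODE annotation both Eif4e windows fall in an exon of an isoform that is annotated as untranslated there, the Eif4g1 window falls inside the gene but in no exon, and the Eif4a1 and Eif3d windows lie outside the gene. In Eif3d the word is on the opposite strand and reads ACTTCCGG on the strand shown. Among the members with a promoter, the E-box was found in 2 of the 9 that were called higher in CB than in isotype (Eif3a and Eif4g1) and in 8 of the 29 that were not. The ETS-type word was found in 2 of the 9 (Eif2b4 and Eif3d) and 5 of the 29, and AAGATGGC in 0 and 4.

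The comparison of CB with isotype asked what blocking both receptors did to responders. In CB, 10 of the 48 initiation factor genes were higher than in isotype and none was lower (20.8%; of all genes tested 4.29% were called in either direction, 2.33% higher and 1.96% lower), at a threshold of 0.05 on the p of the quasi-likelihood test of edgeR, Benjamini-Hochberg adjusted over all genes. They were Eif3j1, Eif1a, Eif2b4, Eif3g, Eif2s2, Eif5b, Eif3d, Eif5, Eif3a and Eif4g1, with log2 fold changes from 0.43 to 0.99. Tested with DESeq2 against a log2 difference of 0.2 in place of 0, Eif3a, Eif3d, Eif4g1 and Eif5 lost their calls and the other 6 kept them. The fold change was above 0 in 36 of the 48 genes, and its median on the log2 scale was 0.22, where the median over all genes tested was 0. Of the 48 members, 45 averaged 400 or more reads per sample. The genes tested include all with 30 or more reads over the 12 samples. Shares and medians over all genes, here and below, are not matched for depth, and the part of depth in the differences was not tested. Summed over the members, the level was 10656–11596 CPM in isotype, 11229–12038 in anti-Lag3, 11911–12027 in anti-PD-L1 and 13068–13747 in CB, so that every CB mouse lay above all 9 others. Abundant genes weigh most in this sum. The called Eif3a and Eif2s2 had means of 812 and 687 CPM in isotype and 1124 and 1058 in CB. The uncalled Eif4g2 and Eif5a had means of 928 and 734 CPM in isotype and 910 and 724 in CB. In these bulk samples, fewer cells of a type and less RNA per cell cannot be told apart. All levels are normalised counts (CPM, reads scaled to a common library size) of 3′ end libraries, in which a transcript gives reads from its end whatever its length.

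**Figure D1:**
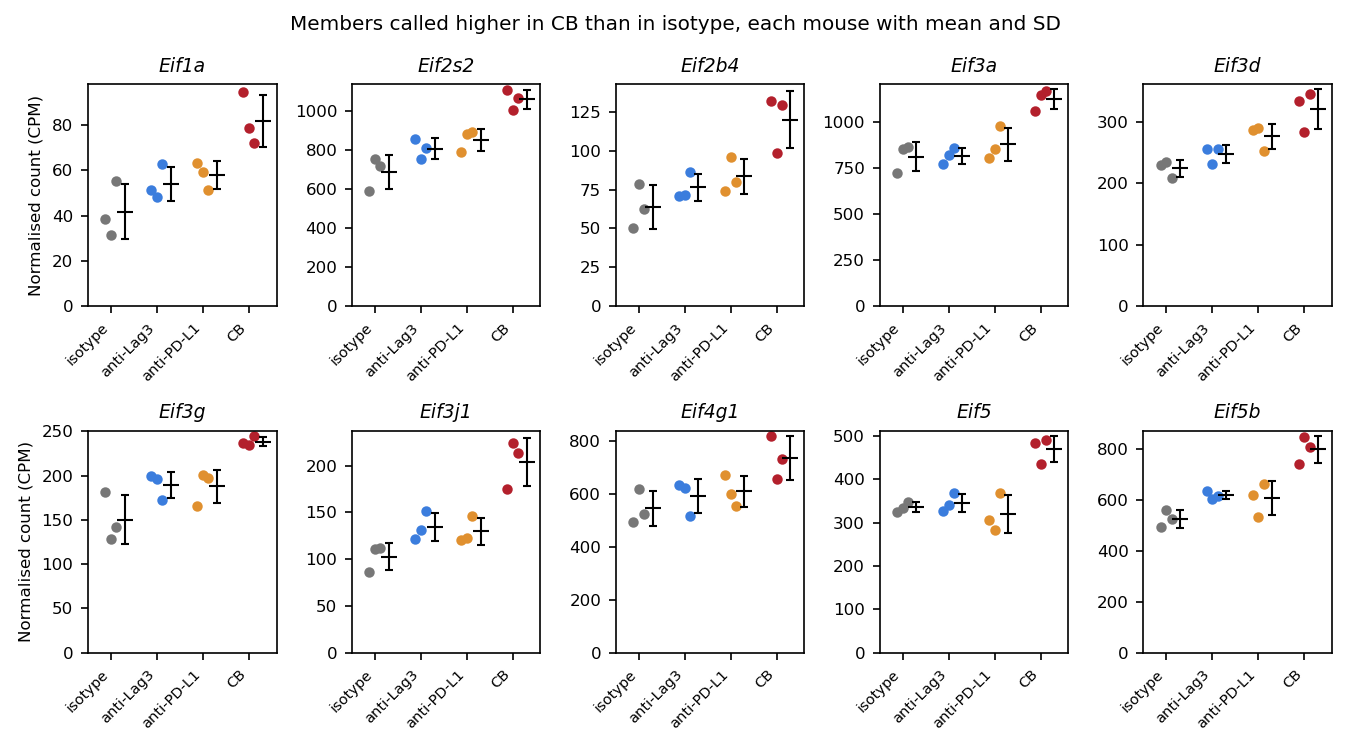
Normalised counts (CPM) of the 10 initiation factor genes called higher in CB than in isotype, 1 panel per gene with its own axis from 0; each point is 1 mouse, and the bar beside the points is the mean with SD of 3 mice. In 8 of the 10 panels the 3 CB points lie above all points of the other groups. For Eif3d and Eif4g1 the lowest CB mouse lies within the range of a single-antibody group. The 10 genes were chosen by their call against isotype. Of all genes tested, 2.35% had all 3 CB mice above all 9 others.

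Subunits of the ternary complex and its recycling factor are described first. Eif2s2 (chr2:154871410-154892935, minus strand, GRCm38) encodes eIF2 beta, the subunit that contacts eIF5 and eIF2B. It stood at 587, 754 and 719 CPM in the isotype mice, at 857, 751 and 809 in anti-Lag3, at 788, 879 and 889 in anti-PD-L1 and at 1105, 1005 and 1063 in CB. The lowest CB mouse was above the highest of all others. From isotype to CB it rose by 0.62 on the log2 scale (SE 0.090, edgeR adjusted p = 9.62e-05), and 26.1% of the 50-base words in its last 400 bases also occur in Gm9892. Eif2s1, the alpha subunit whose phosphorylation shuts down initiation, had 187 ± 26.7 CPM in isotype and 209 ± 22.7 CPM in CB (SD, n = 3), with overlapping mice and a log2 difference of 0.16 (95% interval -0.083 to 0.40). The gamma subunit gene Eif2s3x, which binds GTP and the transfer RNA, is taken up with its X linkage further on.

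Eif2b4 (chr5:31187558-31193430, minus strand), the delta subunit of eIF2B, was the 1 gene of the 5 of this complex that rose (2.33% of all genes). Its levels were 50.1, 78.3 and 62.5 CPM in isotype, 71.0, 71.7 and 86.5 in anti-Lag3, 74.2, 96.0 and 80.1 in anti-PD-L1 and 132, 98.7 and 129 in CB. Again no CB mouse overlapped another group, although the second CB mouse lay close to the highest anti-PD-L1 mouse. The log2 fold change against isotype was 0.91 (SE 0.162, edgeR adjusted p = 9.75e-04). Eif2b2, the beta subunit, had the lowest fold change of the complex, -0.065 (95% interval -0.35 to 0.22). The catalytic subunit gene Eif2b5 stood at 96.6 ± 9.90 CPM in isotype and 111 ± 31.7 CPM in CB, and Eif2b1, which was not called (log2 difference 0.21, 95% interval -0.082 to 0.51), had all 3 CB mice, at 81.8, 80.2 and 86.1 CPM, above the 9 others. Eif2b4 overlaps Snx17 on the opposite strand (20019 and 9461 reads over all samples), and since the strand setting of the counting is not given in the sources used here, reads of the pair cannot be told apart with certainty.

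In the eIF1 group, whose eIF1 and eIF1A proteins guide the scan for the start codon, 1 of 5 genes was called. It was Eif1a, which was higher in CB, as were 2.33% of all genes. This autosomal gene on chromosome 18 encodes a protein akin to eIF1A, whose main gene is the X-linked Eif1ax. Its levels were 38.4, 31.5 and 55.3 CPM in isotype, 51.4, 48.3 and 62.7 in anti-Lag3, 63.4, 59.1 and 51.4 in anti-PD-L1 and 94.7, 78.7 and 72.0 in CB. The CB mice were the 3 highest of the 12, and the other groups overlapped each other. Eif1a rose by 0.97 on the log2 scale (SE 0.186, edgeR adjusted p = 0.00203). Eif1ax was the more abundant of the pair in every mouse, with 215 ± 27.7 CPM in isotype and 255 ± 29.2 CPM in CB and a log2 difference of 0.25 (95% interval 0.0043 to 0.50, edgeR adjusted p = 0.327). Eif1a made up 16.4 ± 5.16% of the reads of the pair in isotype, 18.9 ± 0.257% in anti-Lag3, 19.4 ± 2.89% in anti-PD-L1 and 24.3 ± 3.05% in CB (SD, n = 3), and the isotype and CB mice overlapped on that share, at 11.3–21.7% and 20.8–26.2%. The lowest fold change of the group was that of Eif1b, at 0.063 (95% interval -0.22 to 0.35).

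The eIF3 complex, the largest initiation factor, holds the small subunit and recruits eIF4F. Of its 14 genes 4 rose, 0 fell (2.33% and 1.96% of all genes), and the median log2 fold change was 0.23. The 8 genes of the structural octamer (Eif3a, Eif3c, Eif3e, Eif3f, Eif3h, Eif3k, Eif3l, Eif3m) had a median of 0.16 with 1 called, and the 6 genes of the other subunits (Eif3b, Eif3d, Eif3g, Eif3i, Eif3j1, Eif3j2) had a median of 0.58 with 3 called. The difference between these subgroups was not tested.

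Eif3j1 (chr2:122028546-122056598, plus strand), which encodes the loosely bound subunit that sits in the decoding centre, had the highest fold change of all 48 genes. It stood at 85.9, 111 and 112 CPM in isotype, 122, 132 and 151 in anti-Lag3, 121, 122 and 147 in anti-PD-L1 and 175, 224 and 214 in CB. Every mouse of every treated group was above every isotype mouse, and every CB mouse was above all others. The log2 fold change of CB against isotype was 0.99 (SE 0.135, edgeR adjusted p = 4.63e-05), a fold of 1.99. Its near-copy Eif3j2 was at 1.01–3.62 CPM in isotype and 2.52–3.97 CPM in CB, with 556 reads in all. Because 85.8% of the 50-base words in the last 400 bases of Eif3j2 also occur in Eif3j1, its counts cannot be assigned with certainty, whereas none of the end words of Eif3j1 occurred in another annotated gene's transcript. Eif3j1 overlaps Spg11 on the opposite strand, with 33608 reads against 4053.

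Eif3g (chr9:20894349-20898623, minus strand), an RNA-binding subunit that acts in scanning, had 181, 128 and 142 CPM in isotype and 237, 235 and 244 CPM in CB. The 6 mice given a single antibody were at 166–201 CPM, overlapping the highest isotype mouse and staying below all CB mice. Its log2 fold change was 0.67 (SE 0.123, edgeR adjusted p = 0.00139). The scaffold gene Eif3a (chr19:60761117-60790658, minus strand) had 724, 852 and 861 CPM in isotype, 770, 821 and 859 in anti-Lag3, 805, 852 and 977 in anti-PD-L1 and 1060, 1146 and 1166 in CB. Here the isotype and single-antibody mice overlapped widely and the 3 CB mice stood apart. Eif3a rose by 0.47 on the log2 scale (SE 0.087, edgeR adjusted p = 0.00156).

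Eif3d (chr15:77958998-77970813, minus strand) encodes a subunit that can bind the cap of selected messenger RNAs. Its levels were 230, 234 and 209 CPM in isotype, 257, 231 and 256 in anti-Lag3, 287, 290 and 253 in anti-PD-L1 and 335, 284 and 345 in CB. The CB mice were above all isotype and anti-Lag3 mice, but the second CB mouse lay below the 2 highest anti-PD-L1 mice. For Eif3d the log2 fold change was 0.52 (SE 0.104, edgeR adjusted p = 0.00308). The remaining 10 eIF3 genes were not called and had log2 fold changes from -0.12 in Eif3f, an octamer subunit, to 0.63 in Eif3j2. The abundant octamer genes Eif3h and Eif3l, at 484 ± 24.3 and 270 ± 22.3 CPM in isotype, had intervals of -0.24 to 0.13 and -0.25 to 0.15 on the log2 scale, which leave out a change of the size seen in Eif3j1.

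**Figure D2:**
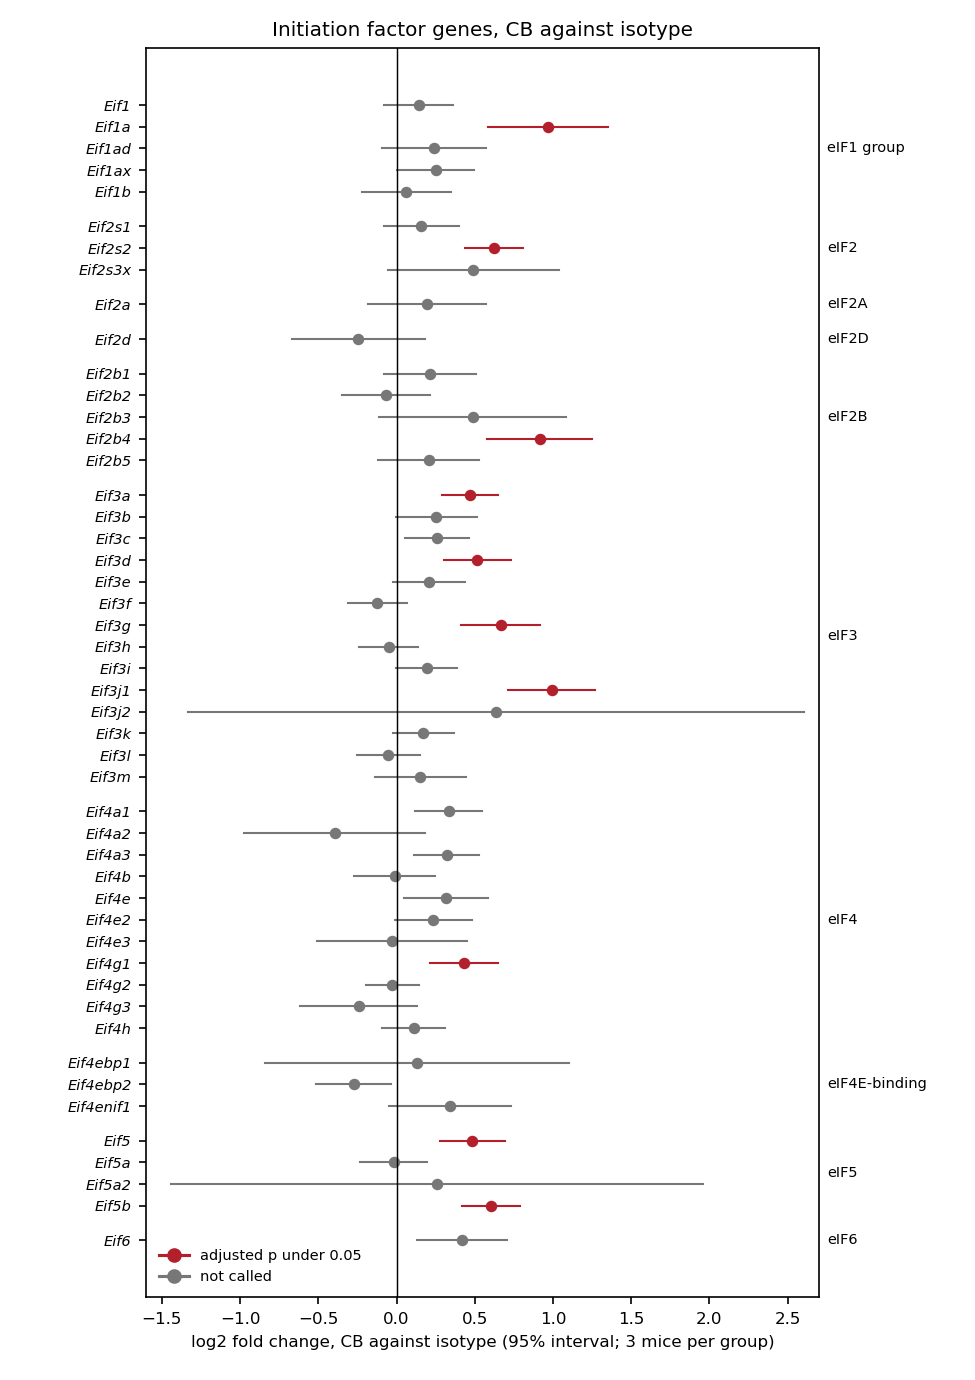
Log2 fold change of each of the 48 initiation factor genes between CB and isotype (horizontal axis) with its 95% interval, ordered by complex; red marks an adjusted p under 0.05 in edgeR, grey the rest, with 3 mice per group. The 10 red genes all lie to the right of 0 between 0.43 and 0.99, and the widest intervals belong to Eif3j2, Eif5a2 and Eif4ebp1, the genes with the fewest reads.

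Among the eIF4 genes 1 of 11 was called (4.29% of all genes), and the median log2 fold change was 0.11. Eif4g1 (chr16:20668313-20692884, plus strand), the scaffold of eIF4F, stood at 492, 619 and 524 CPM in isotype, 632, 622 and 516 in anti-Lag3, 672, 598 and 555 in anti-PD-L1 and 819, 655 and 729 in CB. The CB mice were above the isotype and anti-Lag3 mice, and the second CB mouse lay below the highest anti-PD-L1 mouse. The log2 fold change was 0.43 (SE 0.105, edgeR adjusted p = 0.0137). This call was also lost in edgeR without isotype 1 (log2 fold change 0.36, adjusted p = 0.107), without isotype 3 (0.40, adjusted p = 0.0618) and without CB 1 (0.34, adjusted p = 0.103). The other partners of eIF4F did not pass this test: for Eif4e, the cap-binding subunit, the log2 difference was 0.32 (95% interval 0.048 to 0.59, edgeR adjusted p = 0.220), and for Eif4a1, the main helicase, it was 0.33 (95% interval 0.12 to 0.55, edgeR adjusted p = 0.0685). Both had all 3 CB mice above all 3 isotype mice. Eif4a1 was called by DESeq2's Wald test, with the sample number as a block and with the Y-linked covariate described further on.

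The 3 helicase genes did not share a direction in their values. Eif4a3, a helicase of the exon junction complex rather than of initiation, had a log2 difference of 0.32 (95% interval 0.11 to 0.53, edgeR adjusted p = 0.0760) and was called under the same settings as Eif4a1 and without CB 2. Eif4a2, a close relative of Eif4a1, had the lowest fold change of all 48 genes, -0.39 (95% interval -0.97 to 0.18, edgeR adjusted p = 0.539). It was at 26.6, 24.7 and 32.7 CPM in isotype and at 22.0, 30.0 and 12.0 CPM in CB, so the groups overlapped and the third CB mouse was lowest. Eif4a2 made up 9.54 ± 1.74% of the Eif4a1 and Eif4a2 reads in isotype and 5.96 ± 2.61% in CB (SD, n = 3), with overlap between the groups, and 31.3% of its end words occur in other transcripts. On the opposite strand it overlaps Rfc4, which had 17141 reads against its 5909. The scaffold relatives Eif4g2, whose protein lacks the eIF4E-binding site, and Eif4g3, which has it, had log2 differences of -0.027 (95% interval -0.20 to 0.14) and -0.24 (95% interval -0.61 to 0.13).

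The eIF4E-binding proteins, which compete with eIF4G for the cap-binding subunit, gave no call. Eif4ebp2 had 177, 181 and 171 CPM in isotype, 176, 163 and 176 in anti-Lag3, 171, 138 and 129 in anti-PD-L1 and 155, 140 and 142 in CB. It was the 1 member whose CB mice all lay below the isotype mice (background 9.62% of genes), with a log2 difference of -0.27 (95% interval -0.51 to -0.035, edgeR adjusted p = 0.238). Eif4ebp1 was low, at 8.48 ± 0.703 CPM in isotype and 9.28 ± 2.39 CPM in CB. Eif4enif1, which carries eIF4E into the nucleus and overlaps Drg1 on the opposite strand (11097 and 15324 reads), had a log2 difference of 0.34 (95% interval -0.051 to 0.73).

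Of the 4 genes named eIF5, 2 rose and 0 fell (2.33% and 1.96% of all genes). The 2 were Eif5 and Eif5b, which act in start-site selection and subunit joining. Eif5 (chr12:111538016-111546752, plus strand) encodes the protein that makes eIF2 hydrolyse its GTP. It had 325, 334 and 348 CPM in isotype, 328, 339 and 368 in anti-Lag3, 306, 283 and 368 in anti-PD-L1 and 482, 435 and 491 in CB. The 9 mice without CB overlapped across groups, and the CB mice stood above them all. The log2 fold change was 0.48 (SE 0.101, edgeR adjusted p = 0.00420).

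Eif5b (chr1:37998010-38055579, plus strand), the GTPase that joins the large subunit, stood at 492, 562 and 524 CPM in isotype, 634, 603 and 617 in anti-Lag3, 620, 534 and 664 in anti-PD-L1 and 742, 847 and 808 in CB. All anti-Lag3 mice were above the isotype mice and all CB mice above every other mouse. Eif5b rose by 0.60 on the log2 scale (SE 0.090, edgeR adjusted p = 1.39e-04). Its 3′ end overlaps Rev1 on the opposite strand over 54.1% of its end words, and Rev1 had 2500 reads against 149069. The elongation-related Eif5a, which keeps its old initiation name, was among the most abundant members at 734 ± 45.5 CPM in isotype and 724 ± 96.6 CPM in CB, with a log2 difference of -0.019 (95% interval -0.23 to 0.19). Its relative Eif5a2 had 818 reads in all and made up 0.381 ± 0.162% of the pair in isotype and 0.449 ± 0.232% in CB.

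Of the single-gene factors, Eif6, which keeps the large subunit from joining early, stood at 116, 117 and 102 CPM in isotype and 171, 132 and 144 CPM in CB. Those groups did not overlap, but the gene did not pass the test (log2 difference 0.42, 95% interval 0.13 to 0.71, edgeR adjusted p = 0.0991). It was called with no read filter, with the Y-linked covariate and with the sample number as a block. Eif2a, an alternative transfer RNA carrier that overlaps Serp1 on the opposite strand (12853 and 27853 reads), and Eif2d, which acts in reinitiation and recycling and overlaps Rassf5 (9484 and 42771 reads), had log2 differences of 0.19 (95% interval -0.18 to 0.57) and -0.24 (95% interval -0.67 to 0.18). In all, 19 of the 48 genes had every CB mouse above every isotype mouse, where 10.4% of all genes did.

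**Figure D3:**
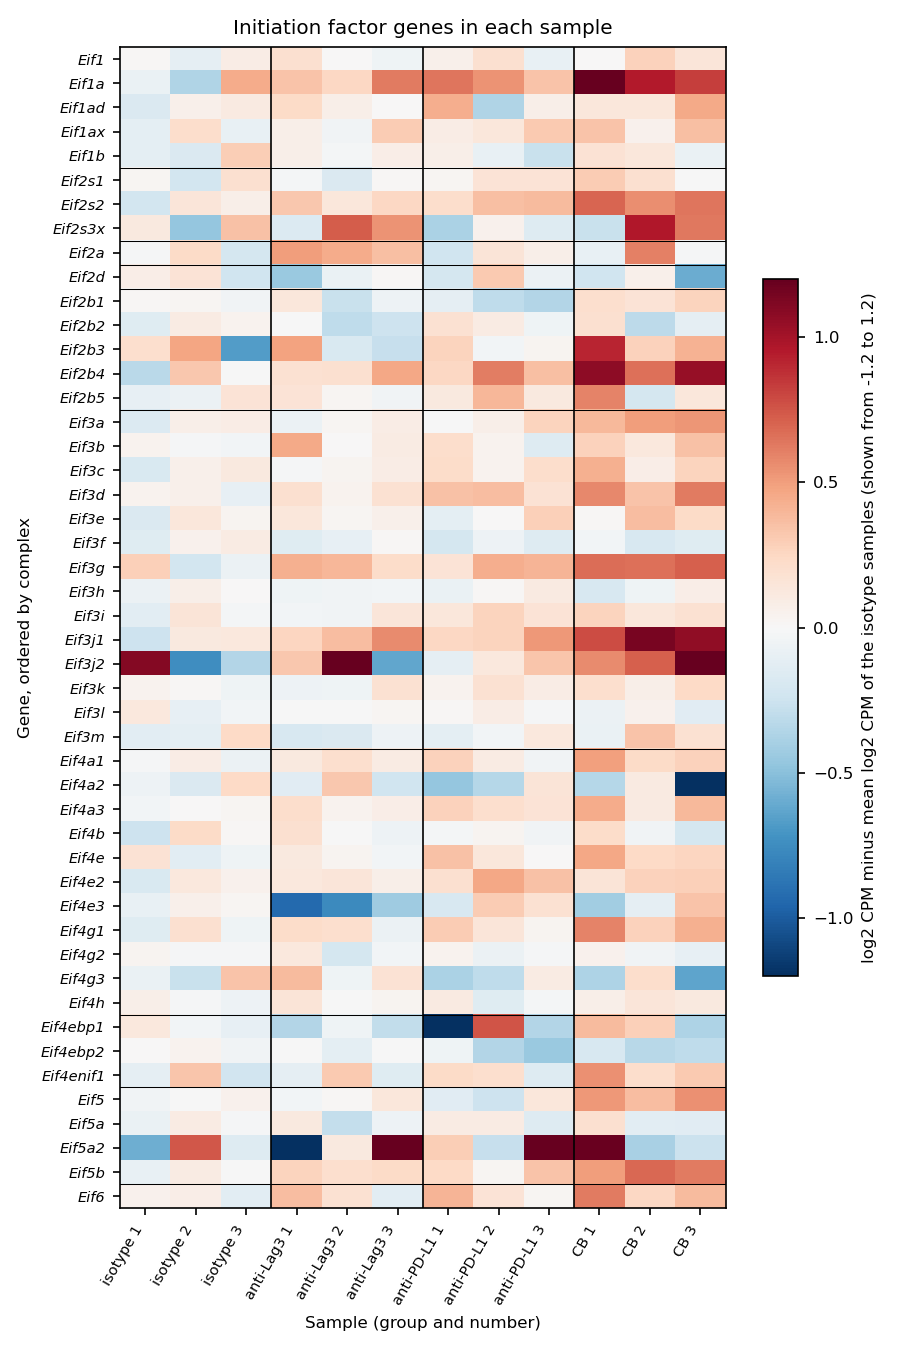
Log2 CPM of each of the 48 genes (rows, by complex) in each of the 12 mice (columns, by group), minus the mean log2 CPM of the isotype mice for that gene; the colour scale runs from -1.2 to 1.2 and 8 values lie beyond it. Eif1a, Eif2b4, Eif2s2, Eif3a, Eif3g, Eif3j1, Eif5 and Eif5b are red in all 3 CB columns, and the rows of Eif3j2, Eif5a2 and Eif4ebp1 vary within groups.

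The comparisons of CB with each single antibody asked what the second antibody added. Against anti-PD-L1, 3 members rose and none fell (background 0.370% of all genes called in either direction, 0.205% higher): Eif5 with a log2 fold change of 0.56 (SE 0.101, edgeR adjusted p = 0.0131), Eif3j1 with 0.65 (SE 0.134, edgeR adjusted p = 0.0289) and Eif5b with 0.40 (SE 0.090, edgeR adjusted p = 0.0471). Against anti-Lag3, 5 members rose and none fell (background 0.694% in either direction, 0.390% higher). They were Eif3a with 0.46 (SE 0.087, edgeR adjusted p = 0.00683), Eif3j1 with 0.60 (SE 0.134, edgeR adjusted p = 0.0284), Eif5 with 0.44 (SE 0.101, edgeR adjusted p = 0.0316), Eif2s2 with 0.39 (SE 0.090, edgeR adjusted p = 0.0323) and Eif5b with 0.37 (SE 0.090, edgeR adjusted p = 0.0492). Eif3j1, Eif5 and Eif5b were thus called higher in CB than in each of the 3 other groups, as were 0.152% of all genes. The 3 comparisons share the CB samples. With the sample number as a block, and with DESeq2's Wald test, Eif2s2 and Eif3a were also called against anti-PD-L1. DESeq2's Wald test against a threshold of 0.2 on the log2 scale called 0 members for CB against either single antibody. The median log2 fold change over the 48 genes was 0.15 for anti-PD-L1 and 0.16 for anti-Lag3 as the group compared, and that of all genes was 0. The counts changed when single mice were left out. Without CB 3, Eif5, Eif3j1 and Eif5b had log2 differences of 0.52, 0.62 and 0.39 from anti-PD-L1. Against anti-PD-L1 the count was 0 without CB 3 or anti-PD-L1 2, and 1 without CB 1, CB 2 or anti-PD-L1 1. Against anti-Lag3 it was 0 without CB 3, 1 without anti-Lag3 1 or anti-Lag3 2, and 2 without anti-Lag3 3 or CB 1. Without CB 3, the log2 differences from anti-Lag3 were 0.43 for Eif3a, 0.57 for Eif3j1, 0.41 for Eif5, 0.39 for Eif2s2 and 0.36 for Eif5b. A fit of the compared groups alone called 0 members against anti-PD-L1. The log2 differences in that fit were 0.56 for Eif5, 0.65 for Eif3j1 and 0.40 for Eif5b. Both calls of Eif5b were lost with 2 other scalings (DESeq2 size factors and upper quartile). Its log2 differences with these, in that order, were 0.39 and 0.38 from anti-PD-L1, and 0.36 and 0.37 from anti-Lag3. Leaving out each of the 12 mice in turn, those of the groups not compared included, Eif5b kept its call against anti-PD-L1 in 2 of 12 fits and against anti-Lag3 in 4 of 12.

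By non-overlap, 11 members had all CB mice above all anti-PD-L1 mice (background 6.94%) and 15 had all CB mice above all anti-Lag3 mice (background 7.68%). In the other direction there were 0 members against anti-PD-L1 (background 5.75%) and 1 against anti-Lag3, Eif4ebp2 (background 7.09%). In 9 members all 3 CB mice lay above all 9 other mice (background 2.35%): Eif1a, Eif2b1, Eif2b4, Eif2s2, Eif3a, Eif3g, Eif3j1, Eif5 and Eif5b. In none did all 3 lie below (background 1.79%). By group means, CB was the highest in 32 members (background 28.5%), isotype the lowest in 25 (background 29.9%), and both held in 22 (background 14.1%).

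Neither antibody alone gave a called member against isotype (background 0.0330% for anti-PD-L1 and 0% for anti-Lag3). With edgeR, 10 members had an unadjusted p under 0.05 for anti-PD-L1 (7.84% of all genes) and 6 for anti-Lag3 (5.21% of all genes), and DESeq2's Wald test called 0 in both. All 3 anti-PD-L1 mice lay above all 3 isotype mice in 6 members (background 5.34%), among them Eif2s2, Eif3d and Eif3j1, and below them in 2, Eif2b1 and Eif4ebp2 (background 6.46%). All 3 anti-Lag3 mice lay above isotype in 5 members (background 5.25%), among them Eif2a, Eif3j1 and Eif5b, and below it in 1, Eif4e3 (background 4.81%). These comparisons share the isotype mice with that of CB. For the 10 genes called in CB, the log2 difference from isotype is given side by side. Eif3j1 had 0.34 in anti-PD-L1, 0.39 in anti-Lag3 and 0.99 in CB. Eif1a had 0.47, 0.37 and 0.97 in the same order. Eif2b4 had 0.39, 0.26 and 0.91. The single-antibody values of these genes lay between isotype and CB.

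Eif3g had 0.32 in anti-PD-L1, 0.33 in anti-Lag3 and 0.67 in CB. Eif2s2 had 0.31, 0.23 and 0.62 in that order, Eif5b 0.20, 0.23 and 0.60, Eif3d 0.30, 0.14 and 0.52, and Eif4g1 0.16, 0.12 and 0.43. Eif3a had 0.11, 0.0073 and 0.47 in that order, and Eif5 had -0.073, 0.038 and 0.48. The interaction, that is the CB difference beyond the sum of the single-antibody differences, was called in 0 members and 0% of all genes by edgeR and in 0 members by DESeq2. With edgeR 3 members had an unadjusted p under 0.05 for it (5.93% of all genes): Eif5 at 0.52 (95% interval 0.23 to 0.81, adjusted p = 0.752), Eif3a at 0.35 (95% interval 0.095 to 0.60, adjusted p = 0.804) and Eif2b1 at 0.52 (95% interval 0.10 to 0.94, adjusted p = 0.804). Between the single antibodies 0 members and 0% of all genes were called by edgeR and 0 members by DESeq2, with 3 members at an unadjusted p under 0.05 in edgeR (4.69% of all genes); the anti-PD-L1 mice lay above the anti-Lag3 mice in 3 members (background 4.01%) and below them in 1, Eif2a (background 4.69%). The lowest unadjusted p there was that of Eif4e3, an eIF4E relative, at 16.6, 18.6 and 23.5 CPM in anti-Lag3 and 27.6, 38.9 and 36.0 CPM in anti-PD-L1 (log2 difference 0.80, 95% interval 0.32 to 1.29, edgeR adjusted p = 0.802).

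Eif2s3x, the X-linked gene of eIF2 gamma, varied within the groups along with the Y-linked and Xist reads. In isotype it was at 36.2, 24.2 and 42.6 CPM, in anti-Lag3 at 29.9, 55.3 and 48.6, in anti-PD-L1 at 25.7, 34.7 and 30.0 and in CB at 27.7, 65.1 and 52.0. Within each group every sample with Y-linked reads was below every sample without them. Over all groups the 5 samples with Y-linked reads spanned 24.2–36.2 CPM and the other 7 spanned 30.0–65.1 CPM. Its Y-linked partner Eif2s3y, not counted among the members, was at 20.3–38.9 CPM in those 5 samples. Summed, the 2 genes stood at 48.0–75.1 CPM in those 5 samples and at 30.0–65.2 CPM in the other 7. By group the sum was 75.1, 51.7 and 42.6 CPM in isotype and 48.0, 65.2 and 52.0 CPM in CB. The log2 difference between CB and isotype was 0.49 (95% interval -0.055 to 1.04, edgeR adjusted p = 0.390), and with the Y-linked level as a covariate, a setting chosen after seeing the data, it was 0.21 (SE 0.223, adjusted p = 0.748). With that covariate all 10 members called in CB against isotype were still called. Of the end words of Eif2s3x 39.7% occur in another transcript.

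**Figure D4:**
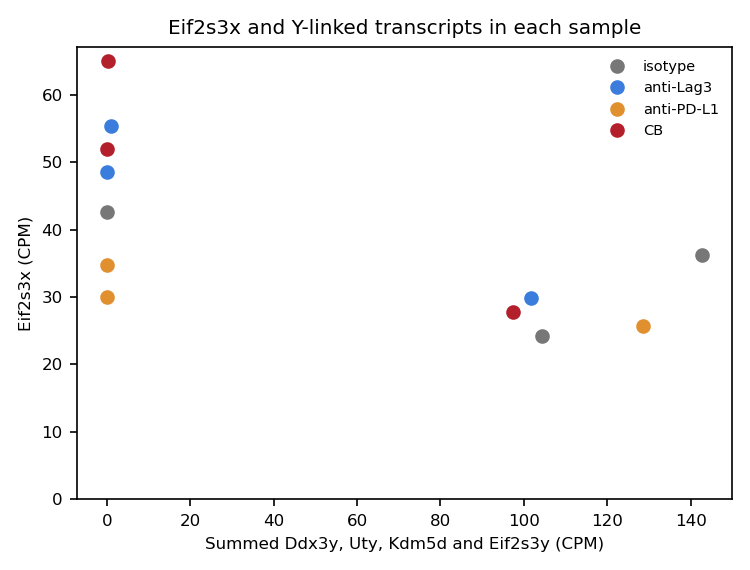
Level of Eif2s3x (vertical axis, CPM) against the summed level of the Y-linked Ddx3y, Uty, Kdm5d and Eif2s3y (horizontal axis, CPM), 1 point per mouse, coloured by group. The 5 samples at 97.4–143 CPM of Y-linked reads lie at 24.2–36.2 CPM of Eif2s3x, and within each colour they lie below the samples near 0 on the horizontal axis.

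The other genes of the pathway were counted from lists by function. Of 21 further initiation proteins 5 rose and 2 fell in CB against isotype (of all genes 2.33% rose and 1.96% fell, as for the lists that follow), and the list's median on the log2 scale was 0.21. Denr, which with Mcts1 promotes reinitiation and recycling, rose by 0.65 on the log2 scale (edgeR adjusted p = 6.90e-04), and Larp1, which binds messages with a terminal oligopyrimidine start, rose by 0.50 (edgeR adjusted p = 0.00535). The 2 that fell oppose or modify the eIF4 factors: Mknk2, the kinase of eIF4E, changed by -0.43 (edgeR adjusted p = 0.00719), and Pdcd4, an inhibitor of the eIF4A helicase, by -0.78 (edgeR adjusted p = 0.0161). Of 10 elongation and termination factors with enough reads, of 11 listed, 1 rose, the release factor gene Etf1 (log2 fold change 0.43, edgeR adjusted p = 0.0385), and the median was 0.14. Of 9 eIF2 kinase and stress response genes 1 rose, Atf4, the transcription factor whose translation increases when eIF2 is limiting (log2 fold change 0.56, edgeR adjusted p = 0.00569), with a median of 0.15. Of 10 genes of mTORC1, the kinase complex that inactivates the eIF4E-binding proteins, and of its activators, inhibitors and substrates, 0 were called by edgeR in either direction. Akt1s1, Mlst8, Rps6kb1 and Rps6kb2 had an unadjusted p under 0.05 (14.9% of all genes), with log2 differences of 1.97, 0.69, 0.37 and 0.63. That of Akt1s1 (95% interval 0.38 to 3.58) rests on low levels, 1.40 ± 0.604 CPM in isotype and 5.53 ± 1.75 CPM in CB. The median of this list on the log2 scale was -0.0070, with 5 of the 10 genes above 0 and the lowest, Deptor, at -0.35. Against anti-PD-L1, Denr was the 1 gene of these lists called (0.53, edgeR adjusted p = 0.0299, with 0.370% of all genes called), and against anti-Lag3 it was Atf4 (0.56, edgeR adjusted p = 0.0221, with 0.694% of all genes called).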

How the data were processed

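The authors made QuantSeq 3′ libraries from 5 ng of RNA. The paper states that Lexogen processed the reads, with cutadapt 1.18, STAR 2.6.1a on GRCm38 and featureCounts 1.6.4. The deposited table holds raw read counts per gene, without molecular identifiers, so the precision that depth gives covers counting error only and PCR copies were counted as reads. A deposited table of log-transformed values was not used. The 114 spike-in rows (0.719–1.29% of counts) were left out. Genes with 30 or more reads over the 12 samples were fitted in 1 model of 4 group means without covariates (edgeR 4.0.16, TMM scaling, quasi-likelihood test, Benjamini-Hochberg adjustment, threshold 0.05; R 4.3.3). CPM values are TMM-scaled. With 3 mice against 3, an exact permutation test of a single gene could not give a p below 0.1. Named with values were all called members, the extremes of each complex, the eIF4E-binding proteins, paralogue pairs and Eif2s3x, and in each pathway list up to 4 called genes by smallest adjusted p. Members and lists were chosen with earlier results of these data known. Settings tried were DESeq2 1.42.0, other scalings, filters, sample sets and blocks.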

Additional observations from a re-analysis of the deposited data

How the results depend on the processing

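For CB against isotype, the 10 called members were also all called with DESeq2 size factors or upper-quartile scaling in edgeR, with no filter or filterByExpr, with only the compared groups, with the replicate block, with the Y-linked covariate (chosen after seeing the data) and with DESeq2's Wald test. Members gained were Eif6 with no filter (11 called), Eif4a1 and Eif4a3 with DESeq2's Wald test (12), and all 3 of these with the Y-linked covariate and with the replicate block (13 each). Tested with DESeq2 against a threshold of 0.2 on the log2 scale, 6 were called, without Eif3a, Eif3d, Eif4g1 and Eif5. Leaving out 1 sample in turn gave 9–11. For CB against anti-PD-L1 (3 called) the count was 5 with the replicate block, 5 with DESeq2's Wald test, 0 with DESeq2 against 0.2, 0 with only the compared groups and 0–4 leaving out 1 sample. For CB against anti-Lag3 (5 called) it was 7 with DESeq2's Wald test, no filter or the replicate block, 6 with only the compared groups, 0 with DESeq2 against 0.2 and 0–6 leaving out 1 sample. Eif5b lost its calls against both single antibodies with DESeq2 size factors and with upper-quartile scaling. The cause was not tested. The paper read the second principal component of these samples as mostly an effect of sorting in batches. The main fit had no batch term. Whether sample numbers mark sort batches is not given. They were not used in the main fit, and only the replicate block used them. Same-numbered samples had correlations from -0.061 to 0.12 over 18 pairs, lowest among those numbered 2 and above 0 among those numbered 1 or 3. Of 12 samples, 8 correlated best with their own number. Leaving out 1 sample turned the sign of uncalled log2 differences between CB and isotype: Eif2b5 (-0.034 to 0.38), Eif2b2 (-0.21 to 0.046), Eif4g2 (-0.068 to 0.0078), Eif1b (-0.025 to 0.22), Eif3h (-0.12 to 0.015), Eif2a (-0.058 to 0.32), Eif4ebp1 (-0.011 to 0.33), Eif3l (-0.10 to 0.013), Eif5a2 (-0.43 to 0.72), Eif4b (-0.13 to 0.11), Eif5a (-0.13 to 0.039) and Eif4e3 (-0.26 to 0.13). With the Y-linked covariate Eif4g2 was at 0.011, Eif4b at 0.026 and Eif5a at 0.036. Depth limits Eif3j2, Eif5a2 and Eif4ebp1, with 556, 818 and 1903 reads in all.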
